A study of Mus musculus with 21 samples.

Results

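Gene expression at postnatal day 7 (P7) was compared with that at postnatal day 3 (P3) in Notch1+ cells of the mouse retina, on 6 of the 21 arrays of the series. The arrays were chosen by their labels: 3 were hybridized with RNA of Notch1+ cells at P3 and 3 with RNA of Notch1+ cells at P7. All mice were of the wild-type strain C57BL/6, and no mutation or drug was named for either age. A single sample held 200000 to 500000 cells, which were captured from retina with a biotin-conjugated antibody to Notch1 and magnetic microbeads directed at biotin. The submitters describe the replicates as biologically independent and the Notch1+ cells as retinal progenitor cells. Notch1+ cells of P0 and P14, with 3 arrays each, served only to set the change between P3 and P7 beside the changes before and after it.

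Notch1 is a receptor at the cell surface that is cut when a neighbouring cell presents a ligand of the Delta or Jagged family. Its released inner part joins the DNA-binding protein Rbpj and turns on repressors of the Hes and Hey families, which hold back neuronal differentiation. In the postnatal mouse retina the last progenitors leave the cell cycle and give rise to rods, bipolar cells and Müller glia, while blood vessels spread from the inner surface into the tissue. Notch1 is also carried by other cells, endothelium among them, so an antibody to Notch1 need not select progenitors alone. Which cells were captured here was not tested.

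Levels are given as log2 normalized intensity, a scale on which a difference of 1 is a 2-fold change. Errors of differences are standard errors (SE) from limma, with n = 3 arrays per age. Their spread was pooled over all 8 groups of the series, so they do not measure the scatter of the P3 and P7 arrays alone. For Rlbp1, with an SE of 0.47, the standard deviation (SD) was 0.11 at P3, 0.10 at P7 and 1.41 in Notch1+ cells at P14. The scanner software found 56.2% to 69.8% of the transcript probes on the P3 arrays and 60.9% to 73.9% on the P7 arrays. Replicate 1 of P3 and replicate 2 of P7 were scanned on 1 day (scan day 1) and the other 4 arrays on another (scan day 2), so each day held both ages. Across genes the P7 replicates correlated at r = 0.980 (1 and 2), 0.982 (1 and 3) and 0.969 (2 and 3). With the P3 arrays, replicate 1 of P7 correlated at 0.930 to 0.952 and replicate 2 at 0.935 to 0.938. Replicate 3 of P7 stood nearest to P3, at 0.962 to 0.978. This array was the lowest of the P7 arrays in 622 of the 717 genes that rose and the highest in 373 of the 491 that fell, and where leaving out this or another array moved a list count given below by over 1.5 times, the count without it or the genes that lost their call are given. The precision is limited by the number of arrays.

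The label was checked first. Notch1 itself was at 15.29, 15.34 and 15.26 at P3 and at 14.86, 14.8 and 15.05 at P7, a difference of -0.39 ± 0.19 that did not pass the test (adjusted p = 0.24, limma). All 6 spots were bright, and 2 of the 3 P3 spots were saturated, so the P3 level is a lower limit. Ccnd1, the cyclin that drives progenitors into division, was saturated on every array at its brightest probe, which gives no difference. Among its 4 probes the one furthest from it gave -1.47. Sox9, a factor of progenitors and Müller glia, was at 14.39, 14.41 and 14.39 at P3 and at 14.22, 14.71 and 14.31 at P7 (adjusted p = 0.99), and the ages overlapped. The sorted cells therefore carried Notch1 transcript at both ages. Of 32 tested genes in a list of retinal progenitors 1 rose and 3 fell, and this share of 12.5% is near the 9.58% called among all genes tested.

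Across 12612 genes, 1208 (9.58%) differed between P7 and P3 at an adjusted p under 0.05 (limma, Benjamini-Hochberg), 717 of them higher (5.69%) and 491 lower (3.89%) at P7. Under median scaling the split was 588 higher and 258 lower. The rises were larger than the falls, with a median of 1.54 against -1.02 on the log2 scale, while the median over all genes was -0.02. A rise of at least 8-fold was seen in 99 called genes and a fall of that size in 3. The arrays of the ages did not overlap in 3819 genes (30.3%), among them 1200 of those called. All 1208 genes had the same sign on scan day 1 and on scan day 2, which for the 1200 without overlap could not be otherwise. From day 2 alone, 120 genes (91 higher, 29 lower) were called. Without replicate 3 of P7, 1525 genes were called, 1134 of them from the 1208, and without replicate 1 of P3, replicate 2 of P7 or replicate 1 of P7 the count was 798, 670 or 644. A core of 553 genes (359 higher, 194 lower) was called whichever of the 6 arrays was left out.

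**Figure D1:**
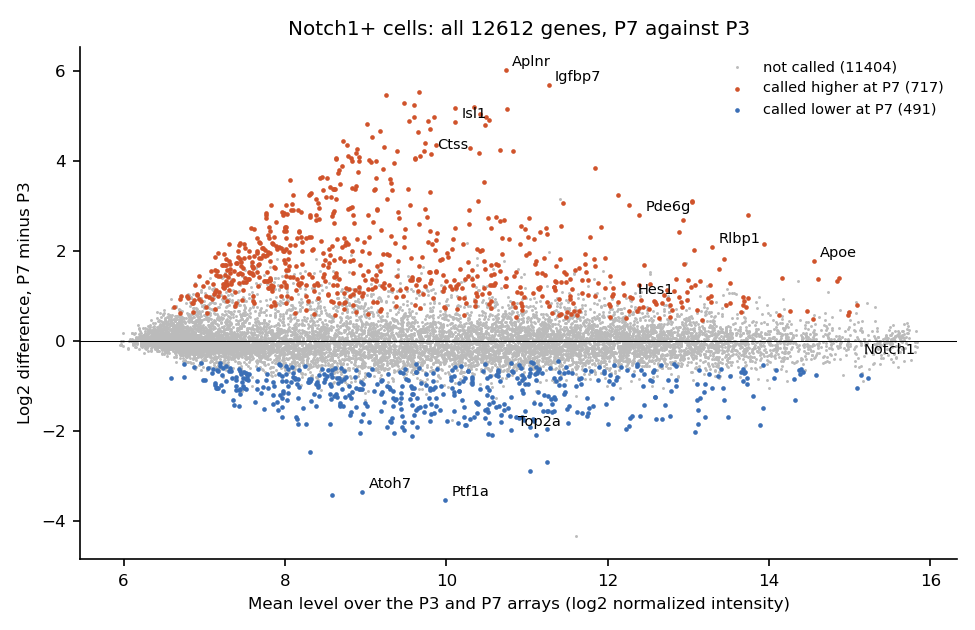
Log2 difference (P7 minus P3) against the mean level over the 6 arrays (log2 normalized intensity), 1 point per gene, with the 717 genes called higher in orange, the 491 called lower in blue and the other 11404 in grey. Rises reach above 6 and lie mostly at low to middle mean levels, and the falls reach -3.55.

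Aplnr, a member of the vascular list, had the largest rise of the genes whose ages did not overlap, and Ptf1a, a member of the neurogenic list, had the largest fall. Aplnr, the apelin receptor of endothelial cells, was at 7.6, 7.8 and 7.8 at P3 and at 13.64, 14.87 and 12.74 at P7. The P7 arrays were all far above the P3 arrays, and replicate 3 was the lowest of them. Aplnr rose by 6.02 ± 0.45 (adjusted p = 1.8e-07). Igfbp7, a secreted binding protein of insulin-like growth factors, was at 7.92, 8.83 and 8.54 at P3 and at 14.32, 14.5 and 13.52 at P7 and rose by 5.68 ± 0.34 (adjusted p = 4.3e-08). Flvcr2, a membrane transporter, was found on none of the P3 arrays and on every P7 array. Its level at P7 was at least 44.0-fold above the P3 limit, taken as the higher of the lowest found signal of an array and the probe's own signal. In the other direction Ptf1a, a factor that directs progenitors to amacrine and horizontal cells, was at 11.92, 11.81 and 11.56 at P3 and at 7.7, 8.07 and 8.87 at P7. Every P7 array was below every P3 array, and replicate 3 was the highest at P7. Ptf1a fell by 3.55 ± 0.23 (adjusted p = 7.3e-08). The other large falls were in Krt73, a keratin (-3.42), Sstr2, a somatostatin receptor (-2.89), Tnnt2, a troponin of heart muscle (-2.48), Rsph1, a protein of ciliary radial spokes (-2.11), and Lrrtm1, a synaptic adhesion protein (-2.06).

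**Figure D2:**
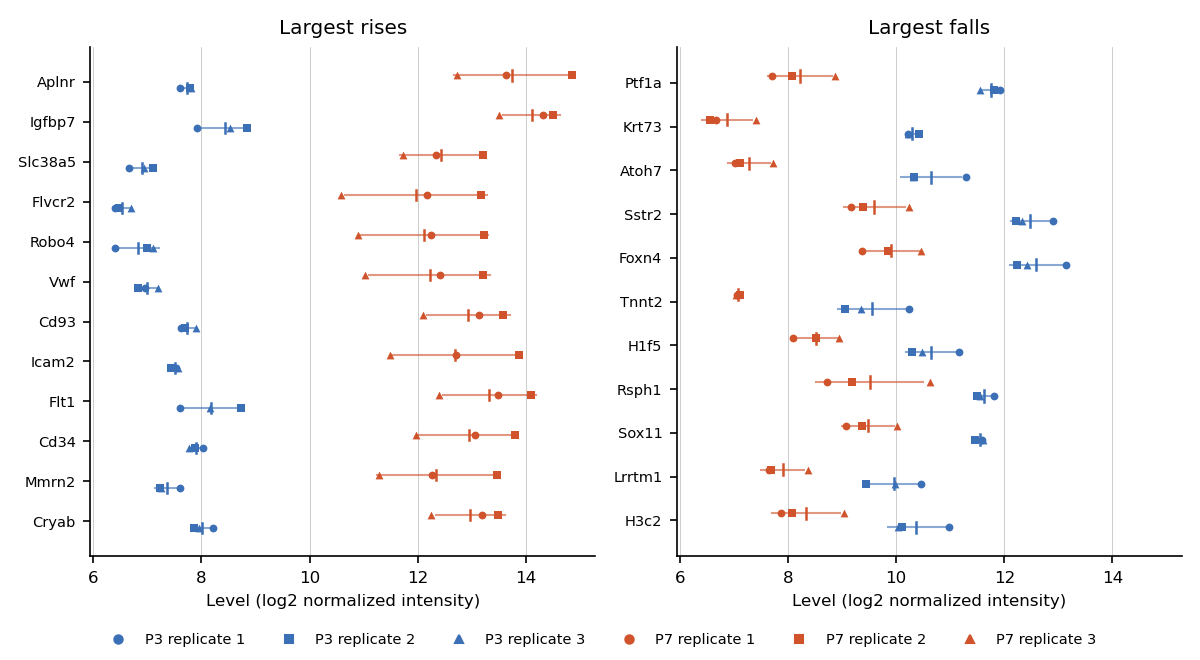
Levels (log2 normalized intensity) of the 12 genes with the largest rise and of 11 of the 12 with the largest fall on each array, with P3 in blue and P7 in orange. Markers stand for replicates, vertical ticks for means and horizontal lines for 1 SD. The P7 points of each rising gene lie above its P3 points with replicate 3 (triangle) nearest to P3, and the falls are smaller than the rises.

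Genes of the cell cycle fell as a group. Of 52 tested genes of mitosis and G2/M, 42 fell and none rose, with a median of -1.49, and of -1.69 on scan day 1 and -1.33 on scan day 2. The mean level of the list was 11.3, 11.04 and 11.07 on the P3 arrays and 9.5, 9.76 and 10.28 on the P7 arrays. From scan day 2 alone 4 genes were called. Replicate 3 of P7 was again nearest to P3, and without it 43 genes fell, with a median of -1.75. Top2a, the topoisomerase that untangles chromosomes before they separate, was at 11.95, 11.52 and 11.95 at P3 and at 9.48, 9.67 and 10.28 at P7. The ages did not overlap, and Top2a fell by 2.0 ± 0.21 (adjusted p = 7.0e-06). Ttk, a kinase of the spindle checkpoint, fell by 1.82 ± 0.17 (adjusted p = 2.1e-06). Ndc80, which ties kinetochores to microtubules, fell by 1.78 ± 0.19 (adjusted p = 8.6e-06). Kif23, a motor protein of cytokinesis, and Cenpk, a centromere protein, fell by 1.89 and 1.91. Knl1, a kinetochore scaffold that was in no list, fell by 1.92.

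Of 41 tested genes of DNA replication and G1/S, 27 fell and none rose, with a median of -1.02, and of -1.17 on scan day 1 and -0.94 on scan day 2. Under median scaling 17 fell, from scan day 2 alone 4, and without replicate 1 of P7 16. Prim1, the catalytic subunit of primase, was at 11.99, 11.57 and 11.57 at P3 and at 9.75, 9.72 and 10.57 at P7. All P7 arrays lay below the P3 arrays, and Prim1 fell by 1.69 ± 0.22 (adjusted p = 8.7e-05). Pold1 and Pole, the catalytic subunits of the replicative polymerases, fell by 1.51 and 1.64, E2f2, a factor that turns on S-phase genes, by 1.58, and Mcm4, a subunit of the replicative helicase, by 1.23. Clspn, the checkpoint mediator at stalled forks, fell by 1.93 outside the list. Among genes in no list were 3 replication-type histones, H1f5, H3c2 and H2ac12, which fell by 2.13, 2.05 and 2.03. Histone genes of these clusters have near-identical copies, and their probes may not tell the copies apart. In the list of CDK inhibitors and cell-cycle exit, 2 of 19 genes rose and 3 fell; without replicate 3 of P7 3 rose, and without any other array none did. Rbl1, a pocket protein that is itself high in cycling cells, fell by 1.13, and Cdk2, the kinase of the S-phase cyclins, by 0.95, a call lost in 2 of the 6 fits that left out an array. The rises of Cdkn2b (1.04) and Ccnd3 (0.73, with -0.08 at its other probe) and the fall of Cdkn2c (-0.82) were each lost in 5 of the 6 fits that left out an array.

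The promoters of the leading cell-cycle genes are shown with short sequence elements known to bind cell-cycle regulators. Any part of these elements in the falls was not tested. RefSeq (GRCm38.p6) promoters of 300 bases run from 250 bases before the transcription start to 50 after it, 5′ to 3′ on the gene's strand, and the first listed start of a gene was used. Capitals mark TTTGAA (the CHR element) and CCAAT (the NF-Y box) on either strand in the mitotic genes, and TTCCCGC or TTGGCGC (E2F cores) and CCAAT in Prim1, where a TTCCCGC and a CCAAT overlap.
Top2a (chr11:99024140-99024439, minus strand): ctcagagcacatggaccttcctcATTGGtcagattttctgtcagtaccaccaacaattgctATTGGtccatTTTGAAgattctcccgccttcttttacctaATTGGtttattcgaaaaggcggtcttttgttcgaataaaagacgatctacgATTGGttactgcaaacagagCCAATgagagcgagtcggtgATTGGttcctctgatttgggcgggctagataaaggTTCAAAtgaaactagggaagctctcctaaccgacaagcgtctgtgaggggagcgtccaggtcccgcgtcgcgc
Cenpe (chr3:135212313-135212612, plus strand): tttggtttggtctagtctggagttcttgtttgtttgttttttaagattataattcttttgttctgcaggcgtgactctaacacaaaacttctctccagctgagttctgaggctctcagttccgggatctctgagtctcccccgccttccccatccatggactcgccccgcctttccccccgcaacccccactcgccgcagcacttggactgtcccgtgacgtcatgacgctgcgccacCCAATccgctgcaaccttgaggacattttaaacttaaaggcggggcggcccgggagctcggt
Prim1 (chr10:128014965-128015264, plus strand): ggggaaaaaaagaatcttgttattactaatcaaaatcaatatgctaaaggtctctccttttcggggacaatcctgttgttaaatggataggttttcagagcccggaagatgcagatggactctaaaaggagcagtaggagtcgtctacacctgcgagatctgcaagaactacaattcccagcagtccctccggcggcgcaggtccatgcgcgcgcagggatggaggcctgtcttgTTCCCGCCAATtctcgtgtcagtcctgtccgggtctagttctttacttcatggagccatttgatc
The Top2a promoter held 2 TTTGAA and 6 CCAAT, that of Cenpe, a kinesin of the kinetochore, 1 CCAAT, and that of Prim1 1 TTCCCGC and 1 CCAAT. The CHR element was in 26 of the 42 mitotic list members with a promoter (61.9%), against 12.8% of the 10037 tested genes with a promoter, and CCAAT in 28 (66.7% against 38.7%). Of 34 replication members with a promoter, 18 held an E2F core (52.9% against 11%) and 22 held CCAAT (64.7%). These matches describe the letters only.

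In the list of neurogenic factors, which also holds other genes such as Sstr2, 8 of 31 fell and 1 rose (2 without replicate 3 of P7). This share of 29.0% stands beside 9.58% of all genes, and the list median was -0.12. From scan day 2 alone 2 fell and none rose. Atoh7, the factor that gives progenitors the competence to form ganglion cells, was at 11.29, 10.33 and 10.31 at P3 and at 7.01, 7.1 and 7.72 at P7. No P7 array reached a P3 array, and Atoh7 fell by 3.37 ± 0.25 (adjusted p = 1.7e-07). Foxn4, which acts upstream of Ptf1a in amacrine and horizontal cells, was at 13.13, 12.23 and 12.41 at P3 and at 9.37, 9.86 and 10.47 at P7 and fell by 2.69 ± 0.29 (adjusted p = 9.0e-06). Dlx1, a homeobox factor of inner retinal neurons, fell by 1.45. The gene that rose was Isl1, a homeobox factor that postnatal bipolar cells use and that the bipolar list also holds. Isl1 was at 7.29, 7.73 and 8.02 at P3 and at 13.7, 13.08 and 10.84 at P7. Replicate 3 was the lowest P7 array, more than 2 units below the others, and still above all P3 arrays. Isl1 rose by 4.86 ± 0.58 (adjusted p = 3.0e-05). In the progenitor list Sox11, a factor of young neurons, fell by 2.07, Fgf15, a secreted growth factor of progenitors, by 1.84, and Sfrp1, a secreted Wnt antagonist, by 0.89. The call for Fgf15 was lost without replicate 1 of P7 (adjusted p = 0.053, limma). Id3, an inhibitor of neurogenic factors, rose by 0.95, and Hmga1, with 2 of 3 P3 spots saturated, has only a lower limit at P3.

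The called genes of the Notch pathway were 5 of 38, beside 9.58% of all genes tested. Of 10 receptors and ligands 2 rose and none fell, with a median of -0.03 that turned to 0.05 under both cyclic loess and median scaling. Of 28 modulators and effectors 1 rose and 2 fell (none under median scaling), with a median of -0.06 that turned to 0.04 under cyclic loess scaling. Jag1, a ligand, was at 6.78, 7.8 and 7.42 at P3 and at 9.72, 10.34 and 8.61 at P7. The P7 arrays all lay above the P3 arrays, by a margin that was smallest in replicate 3, and Jag1 rose by 2.22 ± 0.47 (adjusted p = 0.0053). Notch4, a receptor known from endothelial cells, was at 11.25, 10.76 and 10.58 at P3 and at 12.57, 13.22 and 11.9 at P7 and rose by 1.71 ± 0.36 (adjusted p = 0.005); its other probe gave a difference of 0.83. The ligands of the Delta family had differences of -0.71 (Dll1), -0.73 (Dll3) and -1.03 (Dll4), and none passed the test (adjusted p = 0.39, 0.67 and 0.086, limma). The other probe of Dll4 gave -0.03. Notch3 was at -0.14, Jag2 was found on no P3 array, Dlk1 was at 0.75 and Dner at 0.09, and none of these was called.

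Among the effectors, Hes1, the best known target repressor, was at 12.09, 11.72 and 11.67 at P3 and at 12.8, 12.91 and 12.6 at P7. The ages did not overlap, and Hes1 rose by 0.94 ± 0.23 (adjusted p = 0.014). Hes5, a target repressor typical of neural progenitors, was at 12.57, 12.45 and 12.33 at P3 and at 11.35, 11.39 and 11.98 at P7. Its ages did not overlap either, but the difference of -0.88 ± 0.62 did not pass the test (adjusted p = 0.51, limma). The SD of Hes5 was 0.12 at P3 and 0.35 at P7. In Notch1+ cells at P14, which enter the pooled error, it was 2.04. Heyl, a Hey family repressor, was at 10.89, 11.02 and 11.3 at P3 and at 8.91, 9.13 and 10.09 at P7 and fell by 1.7 ± 0.44 (adjusted p = 0.021). Mfng, a glycosyltransferase that modifies Notch, fell by 0.63 (adjusted p = 0.019). The calls for Hes1, Heyl and Mfng were each lost in 4 of the 6 fits that left out an array and under median scaling, in contrast to Jag1 and Notch4, which were called in all 6. Hey1 (0.32), Hey2 (-0.13), Nrarp (-0.24), Rbpj (-0.6, with 0.01 at its other probe), Lfng (-0.02) and Rfng (0.13) were not called. The subunits and proteases that cut Notch were not called either, with differences from -0.57 for Psenen to 0.34 for Adam10 at their brightest probes. Of the 3 probes of Aph1a the one furthest from the brightest gave -1.21. The brightest probe of Hes6 was saturated on every array and gives no difference, and its other probe gave -0.82.

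**Figure D3:**
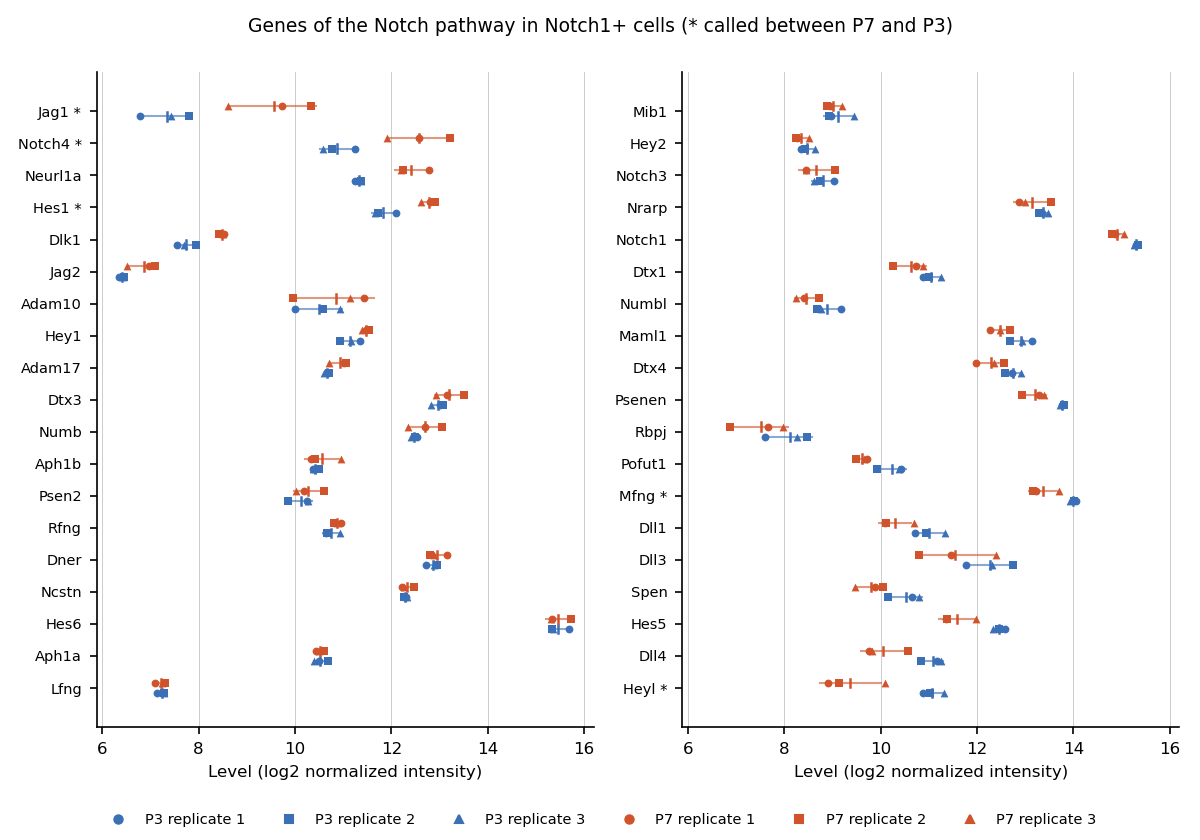
Levels (log2 normalized intensity) of the 38 tested genes of the Notch pathway on each array, ordered from the largest rise (upper left) to the largest fall (lower right), with P3 in blue and P7 in orange. Markers stand for replicates, vertical ticks for means and horizontal lines for 1 SD, and the 5 called genes carry an asterisk. The ages do not overlap in 7 of the 10 receptors and ligands and in 10 of the 28 modulators and effectors, against 30.3% of all genes.

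Many rod genes rose. Of 35 tested rod genes 20 rose and none fell, and all 35 differences were positive, with a median of 1.81, and of 2.06 on scan day 1 and 1.68 on scan day 2. In RNA from many cells, fewer cells of a type and less RNA per cell cannot be told apart, and this holds for every cell type named here. Pde6g, the inhibitory subunit of the rod phosphodiesterase, was at 10.92, 11.03 and 11.02 at P3 and at 14.56, 14.02 and 12.79 at P7. The ages did not overlap, and replicate 3 was the lowest P7 array. Pde6g rose by 2.8 ± 0.49 (adjusted p = 0.0012). Pde6b, a catalytic subunit of that enzyme, rose by 2.69, and Aipl1, which helps to fold it, by 2.55. Mef2c, a factor that rods share with endothelial and other cells, rose by 2.28. The mean level of the rod list was 9.16, 9.47 and 9.41 at P3 and 11.65, 11.08 and 10.35 at P7. Without replicate 3 of P7 the median was 2.2, and 21 genes rose, whereas 3 rose from scan day 2 alone. Without replicate 1, 2 or 3 of P3 the rises numbered 9, 14 or 12, and without replicate 1 or 2 of P7 they numbered 6 or 10.

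The promoters of the rod list members with the largest rise and a promoter entry are shown with TAATCC (a core site of the photoreceptor factor Crx) in capitals. Slc24a1 encodes the rod sodium, calcium and potassium exchanger and Cnga1 a subunit of the rod channel.
Slc24a1 (chr9:64951571-64951870, minus strand): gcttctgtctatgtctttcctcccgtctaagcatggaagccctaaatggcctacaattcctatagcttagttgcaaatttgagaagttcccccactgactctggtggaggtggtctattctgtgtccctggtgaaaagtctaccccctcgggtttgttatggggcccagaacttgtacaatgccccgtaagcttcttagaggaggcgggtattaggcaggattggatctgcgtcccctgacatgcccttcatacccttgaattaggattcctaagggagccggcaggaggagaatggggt
Cnga1 (chr5:72642703-72643002, minus strand): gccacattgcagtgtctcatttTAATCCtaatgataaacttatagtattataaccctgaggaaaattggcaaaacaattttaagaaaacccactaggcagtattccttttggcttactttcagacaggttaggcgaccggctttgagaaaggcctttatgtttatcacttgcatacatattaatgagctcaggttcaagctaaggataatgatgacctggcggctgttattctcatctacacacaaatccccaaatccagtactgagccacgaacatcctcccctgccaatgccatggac
The Slc24a1 window held no TAATCC and that of Cnga1 held 1. TAATCC was in 9 of 24 rod list members with a promoter (37.5%), against 5.93% of all tested genes with a promoter.

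Other neuronal genes rose in smaller number. Of 19 bipolar genes 8 rose, with a median of 1.14, and of 26 presynaptic genes 5 rose. From scan day 2 alone the counts were 0 and 1. Without replicate 1 of P3, or replicate 1 or 3 of P7, the bipolar count was 5, 5 or 11 and the presynaptic count 3, 2 or 7, and without replicate 2 of P7 the presynaptic count was 3. Grm6, the glutamate receptor of ON bipolar cells, was at 6.62, 6.43 and 6.48 at P3 and at 12.84, 12.13 and 7.86 at P7. Replicate 3 was more than 4 units below the other P7 arrays, although above P3. Grm6 rose by 4.43 ± 0.95 (adjusted p = 0.0056), and without that array the difference was 5.98. Grik1, a kainate receptor of OFF bipolar cells, was found on no P3 array and was at least 9.64-fold higher at P7 (adjusted p = 5.8e-04). Stx3, the syntaxin of ribbon synapses, rose by 2.42 and Pcp2, a protein of ON bipolar cells, by 1.95. Of 12 cone genes 1 rose and none fell, a share of 8.33% beside 5.69% of all genes called higher. Of the 12 differences 11 were positive, with a median of 0.67, and of 0.73 on scan day 1 and 0.62 on scan day 2. The cone gene that rose was Arr3, cone arrestin, found on no P3 array and at least 4.94-fold higher at P7 (adjusted p = 0.037, limma). Its call was lost in 5 of the 6 fits that left out an array. Without replicate 3 of P7, 3 cone genes rose, and without any other array none did. Of 17 amacrine and horizontal genes 2 rose, among them Septin4 (1.28), and Onecut1, a factor of horizontal cells, fell by 0.99. Of 16 ganglion cell genes 1 rose, near the 5.69% of all genes. That gene was Rbpms, an RNA-binding protein (1.54), whose call was lost in 4 of the 6 fits that left out an array, and without replicate 3 of P7 the count was 2. The gene Pou4f2, a factor that defines ganglion cells, was found on none of the 6 arrays.

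Genes of Müller glia rose in part: 14 of 39 rose and none fell, with a median of 0.71, and of 0.61 on scan day 1 and 0.81 on scan day 2. From scan day 2 alone 6 rose. Rlbp1, the retinaldehyde-binding protein of Müller glia, was at 12.16, 12.38 and 12.21 at P3 and at 14.36, 14.43 and 14.24 at P7. The replicates of each age lay within a narrow range, replicate 3 of P7 included, and Rlbp1 rose by 2.09 ± 0.47 (adjusted p = 0.0077). Apoe, a lipid carrier of glia and macrophages, was at 13.75, 13.69 and 13.57 at P3 and at 15.43, 15.44 and 15.44 at P7 and rose by 1.77 ± 0.18 (adjusted p = 7.0e-06). Of its P7 spots 2 were saturated, so the rise is a lower limit. Mlc1, a membrane protein of glia, rose by 3.38, although its other probe gave 0.05, and Timp3, a protease inhibitor, rose by 2.17, with 0.34 for the other probe. Cav1 and Sparc, which endothelial cells also make, rose by 3.98 and 2.52. Slc1a3, the glutamate transporter Glast, was at 14.99, 14.96 and 14.83 at P3 and at 15.78, 15.65 and 15.63 at P7. Its ages did not overlap, but the difference of 0.76 did not pass the test (adjusted p = 0.27, limma). Of its P7 spots 2 were saturated, and the SD of 1.09 at P14 entered its error. Vim, the intermediate filament of glia, had a difference of 0.52 (adjusted p = 0.056), and Glul, glutamine synthetase, of 0.06 (adjusted p = 0.97). Gfap, the filament of astrocytes and reactive glia, was found on none of the 6 arrays. Of 10 astrocyte genes 3 rose, led by Gja1, a gap junction protein (2.55), and Ntsr2 fell by 1.34.

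The vascular list had 81.6% of its members called, against 80.8% in the mitotic list and 9.58% of all genes. Of 38 tested endothelial genes 31 rose and none fell, with a median of 2.9, and of 3.78 on scan day 1 and 2.53 on scan day 2. The mean level of the list was 7.77, 7.82 and 7.86 at P3 and 10.93, 11.47 and 10.01 at P7. Every P7 array was at least 2 units above every P3 array, with replicate 3 the lowest. Without that array the median was 3.49, with 31 genes again called, and 18 were called from scan day 2 alone. Flt1, a receptor of vascular endothelial growth factor, was at 7.61, 8.74 and 8.17 at P3 and at 13.49, 14.09 and 12.39 at P7 and rose by 5.16 ± 0.38 (adjusted p = 1.7e-07); its other probe gave 0.66. Icam2, Cd34 and Ramp2, proteins of the endothelial surface, rose by 5.18, 5.05 and 4.8. Robo4, an endothelial guidance receptor, rose by 5.3 (0.24 at its other probe) and Vwf, the clotting factor that endothelium stores, by 5.23. In no list were Cd93, which rose by 5.21, and Vcam1, an adhesion molecule, which rose by 4.29. The part of these cells in the changes of the other lists was not tested.

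The promoters of the vascular genes with the largest rise and a promoter entry are shown with TTCCTG (a core of ETS family sites) in capitals; on the printed strand it reads CAGGAA in Robo4.
Robo4 (chr9:37401722-37402021, plus strand): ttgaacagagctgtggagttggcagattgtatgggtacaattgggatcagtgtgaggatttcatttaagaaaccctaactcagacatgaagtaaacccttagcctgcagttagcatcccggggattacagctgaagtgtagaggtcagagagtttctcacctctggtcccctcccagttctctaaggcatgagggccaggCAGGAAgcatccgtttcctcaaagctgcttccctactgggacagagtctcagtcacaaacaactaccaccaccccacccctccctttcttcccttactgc
Flt1 (chr5:147725962-147726261, minus strand): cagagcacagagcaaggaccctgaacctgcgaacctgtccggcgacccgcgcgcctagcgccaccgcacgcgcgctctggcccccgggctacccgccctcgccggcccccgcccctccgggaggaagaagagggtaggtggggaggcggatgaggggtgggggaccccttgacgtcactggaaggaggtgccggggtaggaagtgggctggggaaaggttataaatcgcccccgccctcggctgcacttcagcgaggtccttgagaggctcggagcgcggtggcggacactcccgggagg
The Robo4 window held 1 match and the Flt1 window none. TTCCTG was in 10 of 19 vascular list members with a promoter (52.6%), against 27.0% of all tested genes with a promoter.

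Genes linked to vessel walls rose beside the endothelial ones. Of 19 genes of transport across the blood-retina barrier 7 rose, led by Slc38a5, an amino acid transporter (5.53), and by members that the vascular list also holds, Sox17, an endothelial factor (3.61), and Cldn5, the main claudin of endothelial tight junctions (2.8). Cldn5 was at 12.47, 12.43 and 12.11 at P3 and at 15.27, 15.68 and 14.48 at P7, with no overlap, and its adjusted p = 1.2e-06. Of 16 genes of pericytes 4 rose: Pdgfb, the endothelial factor that recruits pericytes, by 4.0, Higd1b by 2.64 and Vtn by 2.33, while Rgs5, found on no P3 array, was at least 3.21-fold higher. The calls for Vtn and Rgs5 were each lost in 5 of the 6 fits that left out an array, so that 2 genes rose in those fits and 6 without replicate 3 of P7. Of 35 matrix genes 15 rose, among them the basement membrane genes Nid2 (4.0), Lamb1 (3.72) and Lama4 (2.94). In the list of Wnt, BMP and TGF-beta signalling 5 of 39 rose and 2 fell (1 without replicate 1 of P7), with a median of -0.01 that turned to 0.1 under cyclic loess and 0.04 under median scaling. The falls were in Sfrp1 and in Wnt5a, a Wnt ligand (-0.91), and the rises included Tgfbr2 (4.72, with -0.03 at another probe), Eng (3.63) and Acvrl1 (at least 5.82-fold), receptors that endothelium uses. Of 22 angiogenic and hypoxia genes 5 rose, with Cxcl12 at 2.99 (0.06 at another probe) and Apln, the ligand of Aplnr, at 2.9; without replicate 2 of P7 the call for Cxcl12 was lost (adjusted p = 0.055, limma) and 2 of the list rose, and without replicate 1 of P3 or of P7 3 rose.

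Genes of blood and immune cells rose at P7 as well. Of 29 genes of microglia and macrophages 17 rose and none fell, with a median of 1.55, and of 1.69 on scan day 1 and 1.38 on scan day 2. From scan day 2 alone 3 rose. Ctss, a protease of macrophage lysosomes, was at 8.23, 7.68 and 7.28 at P3 and at 12.05, 11.94 and 11.69 at P7. The 3 P7 arrays were close together and far above P3, and Ctss rose by 4.16 ± 0.39 (adjusted p = 2.5e-06). Laptm5, a lysosomal protein of blood cells, rose by 3.84, Fcrls, a microglial receptor, by 3.52 (0.33 at its other probe), and C1qa, a chain of complement C1q, by 2.85. The mean level of this list was 7.19 to 7.47 at P3 and 8.67 to 9.11 at P7. Of 28 interferon and MHC class I genes 9 rose, led by Ifitm3 (4.07), Psmb8 (3.36, with -0.08 at another probe) and Bst2 (2.6), and 5 rose without replicate 2 of P7. Of 6 erythroid genes 3 rose, namely Hba-a1 (4.36) and Hbb-b2 (3.82), globin chains with near-identical copies, and Alas2, the heme synthesis enzyme of red cells, which was found on no P3 array and was at least 3.97-fold higher. Of 27 immediate-early and stress genes 7 rose, among them Klf2, a factor of endothelium and lymphocytes (2.78), Ccn2 (2.02) and Zfp36 (1.67), and 4 rose without replicate 1 or 2 of P3 or replicate 2 of P7. Of 10 lens genes 3 rose (1 without replicate 1 of P3), led by the small heat-shock protein Cryab (4.97), and Crygn, a crystallin, fell by 0.88. The part of the immune, blood and lens cells in the other results was not tested.

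**Figure D4:**
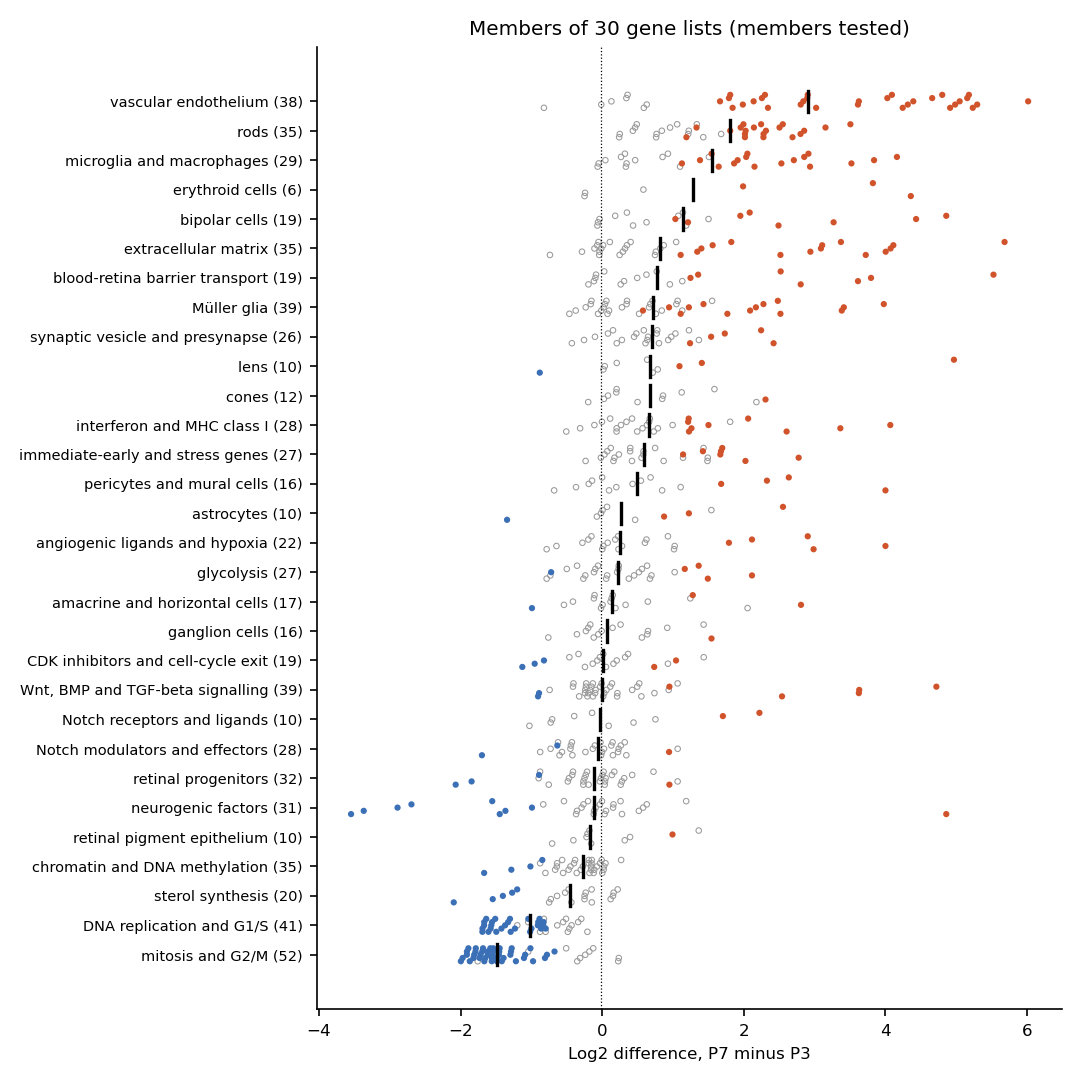
Log2 differences (P7 minus P3) of the tested members of the 30 gene lists, 1 circle per gene, with members called higher in orange, called lower in blue and the others open. Black ticks are list medians, the dotted line is the median over all 12612 genes, and the number of tested members follows each name. The medians run from -1.49 for mitosis to 2.9 for vascular endothelium.

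Sterol synthesis fell in part: 5 of 20 genes fell (2 under median scaling) and none rose, with a median of -0.45, and of -0.51 on scan day 1 and -0.46 on scan day 2. Sqle, the squalene epoxidase, was at 12.78, 12.51 and 12.77 at P3 and at 11.27, 11.59 and 11.38 at P7. All P7 arrays lay below all P3 arrays, with replicate 1 the lowest. Sqle fell by 1.27 ± 0.23 (adjusted p = 0.0017). Msmo1, a sterol oxidase, fell by 1.2. Idi1, an isomerase of isoprenoid units, fell by 1.4 (adjusted p = 0.034), a call that was lost in 4 of the 6 fits that left out an array. Its promoter is shown as that of the list member with the largest fall that has an entry, with CCAAT in capitals; ACCCCAC, part of the element bound by sterol regulatory factors, was not in the window.
Idi1 (chr13:8885356-8885655, plus strand): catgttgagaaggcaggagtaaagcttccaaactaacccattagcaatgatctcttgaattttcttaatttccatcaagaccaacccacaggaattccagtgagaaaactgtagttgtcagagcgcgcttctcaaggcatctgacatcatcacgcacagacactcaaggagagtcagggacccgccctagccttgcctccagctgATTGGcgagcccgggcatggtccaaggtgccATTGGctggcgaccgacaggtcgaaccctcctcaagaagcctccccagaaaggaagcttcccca
The Idi1 promoter held 2 CCAAT, which was in 13 of 15 list members with a promoter (86.7% against 38.7% of all tested genes), and ACCCCAC was in 3 (20.0% against 6.29%). Of 35 chromatin genes 4 fell and none rose, a share of 11.4% beside 3.89% of all genes called lower and 9.58% called in either direction. Of the 35 differences 30 were negative, with a median of -0.27, and of -0.44 on scan day 1 and -0.28 on scan day 2. Uhrf1 and Dnmt1, which copy DNA methylation to the new strand, fell by 1.67 and 0.85, H2ax, a histone of DNA repair, by 1.28, and Cbx5, a heterochromatin protein, by 1.01, a call that was lost in 4 of the 6 fits that left out an array. Of 27 glycolysis genes 4 rose and 1 fell, with 0 to 5 rises and 0 or 1 fall when an array was left out, and the calls for Hk1 (1.17), Eno2 (1.49) and Pdk1 (-0.72) were each lost in 5 of the 6 fits that left out an array.

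The change between P3 and P7 was also set against the change before it, between P0 and P3, in 1 test of the difference between the steps. The steps share the P3 arrays and differ in length, and their changes were not divided by days. In 108 genes (0.856%) the step to P7 was the more positive and in 11 (0.0872%) the more negative. Of the vascular genes 18 of 38 had the more positive step to P7, as had 8 of 35 matrix genes and 4 of 19 barrier genes, while no gene of the mitosis or replication list differed between steps. The mean level of the vascular list was 7.54 to 7.64 at P0, 7.77 to 7.86 at P3, 10.01 to 11.47 at P7 and 12.26 to 13.33 at P14. For mitosis it was 11.77 to 12.02, 11.04 to 11.3, 9.5 to 10.28 and 9.44 to 9.87, so that this list was already lower at P3 than at P0. The count of 119 fell to 38 without replicate 3 of P3, to 42 without replicate 2 of P3 and to 64 without replicate 1 of P3, and rose to 259 without replicate 3 of P7.

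The step after P7, to P14, shares the P7 arrays and is longer, and its changes were also not divided by days. Against it 247 genes (1.96%) differed, 110 (0.872%) with the more positive and 137 (1.09%) with the more negative step to P14. This count rests on the spread pooled over all 8 groups: with only the P3, P7 and P14 arrays in the limma fit none was called, although 1816 genes had an unadjusted p under 0.05. Leaving out replicate 1, 2 or 3 of P7 gave 6, 50 or 325 genes, and leaving out replicate 1, 2 or 3 of P3 gave 81, 71 or 109; fits without a P14 array were not run. Among lists, 5 of 38 vascular genes, 3 of 19 bipolar genes and 3 of 26 presynaptic genes had the more negative step to P14. The more positive step was seen in 5 of 52 mitotic genes, 4 of 41 replication genes and 3 of 20 sterol genes. Other lists had fewer such genes in each direction. The mean level of the bipolar list was 7.58 to 7.67 at P3, 8.24 to 9.8 at P7 and 8.74 to 9.01 at P14.

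**Figure D5:**
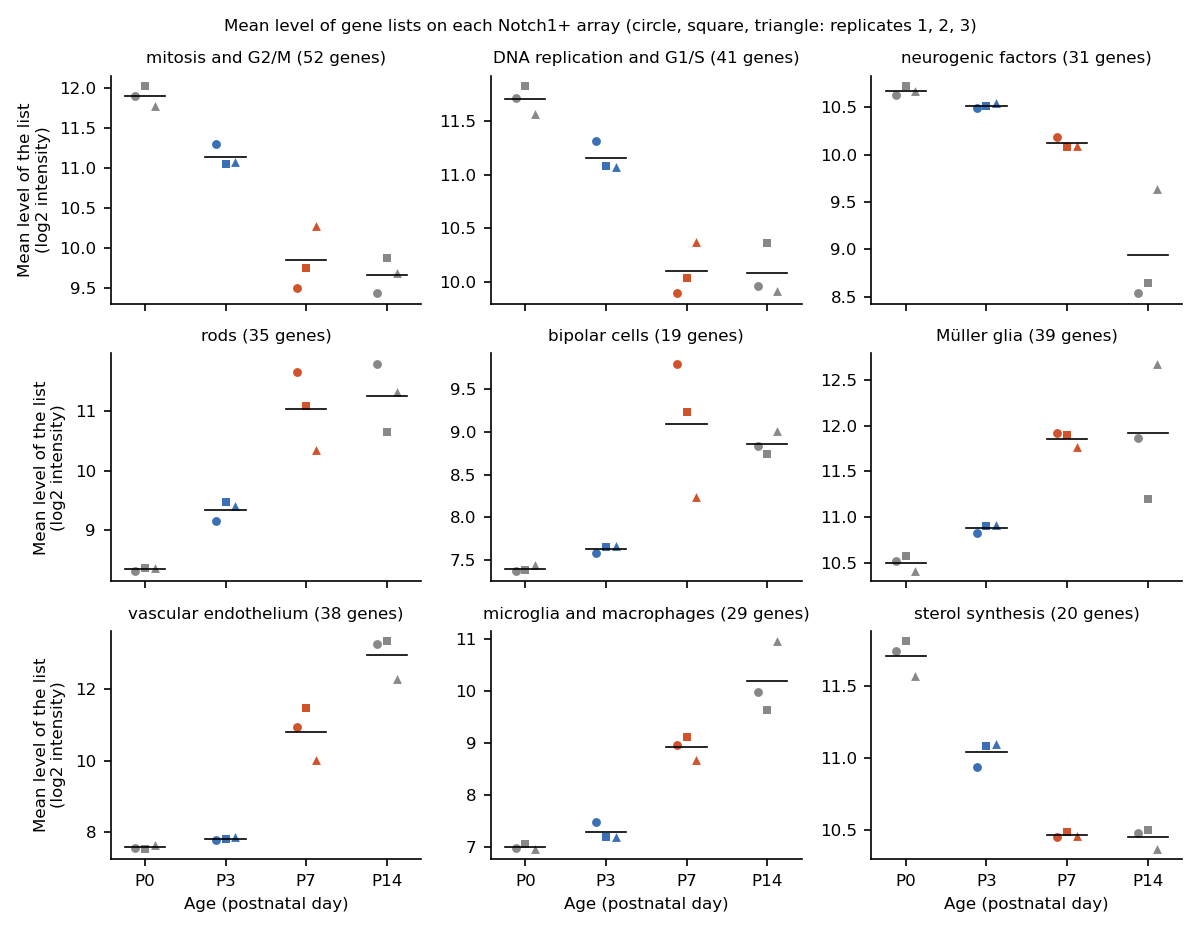
Mean level (log2 normalized intensity) of the tested members of 9 gene lists on each Notch1+ array at P0, P3, P7 and P14, with replicates 1, 2 and 3 as circle, square and triangle and the group mean as a line. P3 is blue, P7 is orange, the other ages are grey, and each panel has its own vertical range. Mitosis, replication and sterol genes decline from P0 to P7, whereas all P7 points of the vascular, rod and microglial lists lie above all their P0 and P3 points.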

How the data were processed

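Per the labels' protocols, RNA from captured cells was amplified to biotin-labelled cRNA and stained with a streptavidin dye on single-channel arrays. Per the file headers, images were read with GenePix Pro 4.1.1.4 into deposited intensity values, in scanner units, for 38880 spots. The deposited table of processed signal, with linear values, scaled by the authors per array, was used as an alternative; its tool is not given in the sources used here.

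Spot medians were corrected for background with normexp (offset 50), limited to 34312 transcript probes, quantile normalized over 21 arrays and put on the log2 scale. Probes found on every array of at least 1 of 8 groups were kept (25264). Accessions were matched to RefSeq (GRCm38.p6): 22987 probes had 1 symbol, 0 several and 11325 none. Each gene took the value of its brightest kept probe. limma 3.58.1 in R 4.3.3 fitted 8 group means (13 residual degrees of freedom), with Benjamini-Hochberg adjustment over 12612 genes. Python 3.11.15 with pandas 2.3.3, numpy 2.4.6 and matplotlib 3.10.9 made tables and figures, and the fit was tested on simulated data.

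The comparison, the 30 gene lists and the rule for naming genes were chosen with earlier results of these data known. The rule named 10 chosen genes, the 12 largest rises and falls, up to 5 genes per list by adjusted p, all Notch genes, the 10 largest rises and falls outside lists, and the 5 largest differences between steps in each direction. Some genes that it named, mostly uncalled ones, are counted in the text without a value of their own, and some are not reported here. A named gene's other probe is given where probes span over 2 or differ in sign.

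Alternatives covered scaling, background, spot columns, probe filter and choice, the samples fitted, the prior, blocks for replicate and scan day, a 2-fold minimum and leaving out each array.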

Additional observations from a re-analysis of the deposited data

Results flagged for a closer look

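These genes were picked because the change from P3 to P7 differed, by a limma test of the difference between steps, from the change before or after it. Values are log2 differences between steps and are not per day. For the step to P7 against the step from P0 to P3, the positive values were those of Flvcr2 (5.77), Slc38a5 (5.51), Aplnr (5.16), Vwf (5.08) and Arap3 (4.98), all at 6.52 to 7.73 on average at P0 and P3. Flvcr2 was found on no P3 array, so its value rests on signal not above background there and has no rank. Slc38a5 averaged 6.88, 6.90, 12.43 and 15.00 at P0, P3, P7 and P14. The largest negative values were those of Pdk1 (-3.20), a kinase that limits pyruvate oxidation, Ptf1a (-2.71), Asb4 (-2.31), Efcab6 (-2.23) and H1f2 (-1.98). Pdk1 averaged 9.01 at P0, 11.49 at P3 and 10.76 at P7.

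For the step to P14 against the step to P7, the largest negative values were those of Isl1 (-5.66), Zfhx4 (-4.74), Amph (-4.73), Sphkap (-4.72) and Rimkla (-4.64). Isl1 averaged 7.68 at P3, 12.54 at P7 and 11.74 at P14, and Amph, a protein of synaptic vesicle uptake, 10.76, 13.78 and 12.07, with a change from P3 to P7 of 0.06 at its other probe. That change was 2.72 for Sphkap and 0.30 at its other probe. The largest positive values were those of Gcnt1 (3.62), Ltbp4 (3.42), Eln, the gene of elastin (3.21), Apod (3.19) and Mgp (3.19), of which Mgp was found on no P3 array. Eln averaged 9.70, 10.20 and 13.91 at P3, P7 and P14. None of these 20 differences was called by limma within scan day 2, and the calls that remained with only the compared groups in the fit numbered 8 of 20.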

How the results depend on the processing

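The count of 1208 genes between P7 and P3 stayed within 1.5 times under the alternatives of scaling, background, spot columns, probe choice, filter, prior, blocks and samples fitted (829 to 1396, the lowest with a 2-fold minimum), but was 120 within scan day 2 (1802 at an unadjusted p under 0.05) and 644 to 1525 with an array left out. The 119 genes that differed between the step to P7 and the step before it became 39 with only the Notch1+ groups in the fit, 0 by limma within scan day 2 (717 at an unadjusted p under 0.05), 76 with spot medians less background means, and 38 to 259 with an array left out. The 247 genes that differed between the step after and the step to P7 became 96 under median scaling, 57 with only the Notch1+ groups, 0 with only the compared groups, 494 with scan day as a block, 0 by limma within scan day 2 (1363 at an unadjusted p under 0.05), 409 with spot means less background means, and 6 to 325 with an array left out. Fits within scan day 2 and with arrays left out have fewer arrays. The 3 settings with other spot columns were added after seeing the data, and between P7 and P3 they called 1349, 1191 and 1048 genes. The median of Notch modulators turned from -0.06 to 0.0385 under cyclic loess, and those of Notch receptors, CDK inhibitors, amacrine, ganglion and Wnt genes, also near 0, each changed sign under at least 1 alternative; the cause was not tested. No named gene called between P7 and P3 changed sign under any of these settings. A replicate block gave 1161, 134 and 209 genes in the 3 tests. Deviations from the group means correlated at -0.50, -0.47 and 0.12 between P3 and P7 arrays of equal number. For pairs scanned on the same day they correlated at 0.12 to 0.53, and for pairs of different days at -0.50 to -0.17. The values for equal numbers are therefore mixed with scan day and cannot decide whether the numbers mark a pairing. The main fit had no term for scan day, and with 1 it called 1396 genes between P7 and P3. Spots below background or saturated give limits rather than levels.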

Other observations

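Among genes in no list that were found on all 6 arrays, the largest rises included genes with other known roles. Slc40a1, the iron exporter ferroportin, was at 8.94, 8.59 and 8.64 at P3 and at 12.84, 14.0 and 11.98 at P7 and rose by 4.22 ± 0.35 (adjusted p = 7.6e-07). Ptgis, the enzyme that makes prostacyclin, rose by 4.17, Ctsh, a lysosomal protease, by 4.18, Anxa3, an annexin, by 4.65, and Pde8a, a cyclic AMP phosphodiesterase, by 4.23. Every P7 array lay above every P3 array for each of these genes, and replicate 3 was the lowest P7 array. Pif1, a DNA helicase, fell by 1.96. Levels within P7 differed between lists: replicate 3 was the lowest P7 array in the mean level of the bipolar list (9.8, 9.23 and 8.24), and the Müller list was at 11.92, 11.9 and 11.76 and the microglial list at 8.96, 9.11 and 8.67.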
